A study of Mus musculus with 6 samples.

Results

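This account follows 10 long noncoding RNA (lncRNA) genes of neural tissue, *Miat*, *Malat1*, *Neat1*, *Meg3*, *Rian*, *Mirg*, *Snhg11*, *Six3os1*, *Tug1* and *Kcnq1ot1*, among the 55573 genes counted in mouse retinal cells. The list was chosen by the counts of these same 6 libraries, *Ezh2* against *GFP*, so every difference of its members between those groups is given as a description with no test. All 10 were found by symbol, and all 10 passed the filter on low counts. Per the labels, C57BL/6J mice received AAV2 carrying either *Ezh2* or *GFP* into the vitreous, the optic nerve was crushed 2 weeks later, and cells were sorted 3 days after the crush. Both groups of 3 libraries therefore shared the virus serotype and the nerve injury and differed in the gene carried. Per the study's methods, living cells bearing CD90.2, the product of *Thy1*, were sorted to enrich retinal ganglion cells (RGCs), whose axons form the optic nerve. Nothing in the labels says which animals gave which library, so errors here measure the spread between libraries. The SE of a fitted fold change also draws on the spread of other genes in the fit.

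A lncRNA is transcribed and processed much like a messenger RNA but is not read into a long protein. Many act in the nucleus. Some scaffold nuclear bodies, as *Neat1* does for paraspeckles, some keep neighbouring genes silent on the chromosome they come from, as *Kcnq1ot1* does on the paternal chromosome, and some are hosts from which small RNAs are cut. Several are known to bind the Polycomb repressive complex PRC2, whose catalytic subunit *Ezh2* encodes. *Miat*, also called Gomafu, is a neuronal lncRNA that was mapped in the retina as well as the brain and gathers in spots of the nucleus.

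*Miat* carries copies of TACTAAC, the branch point sequence that the splicing factor SF1 binds. The longest *Miat* transcript in the GENCODE M21 annotation, 9163 bases, held 6 copies, or 0.655 per kb, counted on the transcript strand. No other annotated lncRNA with a transcript of at least 300 bases held more. Among the other members, *Kcnq1ot1* held 4 copies in 93092 bases (0.0430 per kb), *Neat1* held 1 in 20771 bases, and the other 7 held none. Of 12885 lncRNA genes, 4.73% had a copy in their longest transcript, and 2 (0.0155%), *Miat* included, had 3 or more copies within 300 bases. The stretch of *Miat* where they are densest is shown because it is what sets this RNA apart in sequence from the other members. It lies in exon 7 of 7, at chr5:112217235-112217534 on the minus strand of GRCm38, with the 3 copies in capitals.
*Miat* exon 7: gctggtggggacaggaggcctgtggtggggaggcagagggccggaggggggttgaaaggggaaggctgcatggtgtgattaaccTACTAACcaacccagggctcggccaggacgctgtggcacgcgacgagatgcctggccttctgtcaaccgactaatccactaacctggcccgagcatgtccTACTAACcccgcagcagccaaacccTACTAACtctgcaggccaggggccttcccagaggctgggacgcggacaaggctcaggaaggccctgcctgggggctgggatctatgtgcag

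*Mirg*, by contrast, is a host for microRNAs, and 4 microRNA genes lie entirely inside its exons. The mature sequences from RefSeq (GRCm38.p6) are shown because the libraries did not count these RNAs apart from their host. Each of those 4 genes had 0 counts in every library, as had all 27 annotated genes that lie wholly inside exons of a member on its own strand, so these zeros give no measure of the microRNAs. The seeds (bases 2 to 8) are in capitals, and no 2 of them are alike.
mmu-miR-134-5p: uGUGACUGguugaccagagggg
mmu-miR-485-3p: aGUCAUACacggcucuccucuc
mmu-miR-377-3p: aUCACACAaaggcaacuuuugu
mmu-miR-410-3p: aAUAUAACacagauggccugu

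The libraries held between 30569933 and 35971192 counts. The targeted gene, *Ezh2*, reached 28.8 to 34.6 CPM (a gene's counts per 1000000 counts of its library) in the GFP libraries and 65.3 to 104.8 CPM in the Ezh2 libraries. Ezh2 replicate 3 stood apart: its counts differed from those of Ezh2 replicates 1 and 2 by a chi-square of 54.8 and 62.5 per degree of freedom, against 5.17 to 8.02 for the other pairs within a group. The fit used here left it out, as the study left out 1 Ezh2 library. Its values are printed beside the others throughout. Of the markers of the labelled cell type, *Thy1* reached 87.2 to 113.8 CPM, but the RGC transcription factors *Pou4f1*, *Pou4f2* and *Pou4f3* stayed between 0 and 0.600 CPM. The 8 Müller glia markers together reached 19706 to 25421 CPM, and the 12 RGC markers 141.3 to 177 CPM, so the libraries held RNA of many retinal cells besides RGCs. In bulk samples, fewer cells of a type and less RNA per cell cannot be told apart.

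*Miat* was the member that differed most between the groups. It had 3.89, 4.42 and 3.42 CPM in GFP replicates 1, 2 and 3 (119, 140 and 105 counts). In Ezh2 replicates 1, 2 and 3 it had 25.7, 23.6 and 22.9 CPM (829, 825 and 825 counts). The groups did not overlap, and any Ezh2 library exceeded any GFP library by 5.19-fold to 7.54-fold. The mean was 3.91 ± 0.504 CPM (SD, n = 3) in GFP and 24.6 ± 1.55 CPM (SD, n = 2) in Ezh2 replicates 1 and 2. The fitted log2 fold change was 2.66 ± 0.13 (SE), a 6.34-fold difference, and 2.66 ± 0.14 with all 6 libraries. Ezh2 replicate 3, which stood apart over all genes, lay close to the other Ezh2 libraries in *Miat*.

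**Figure D1:**
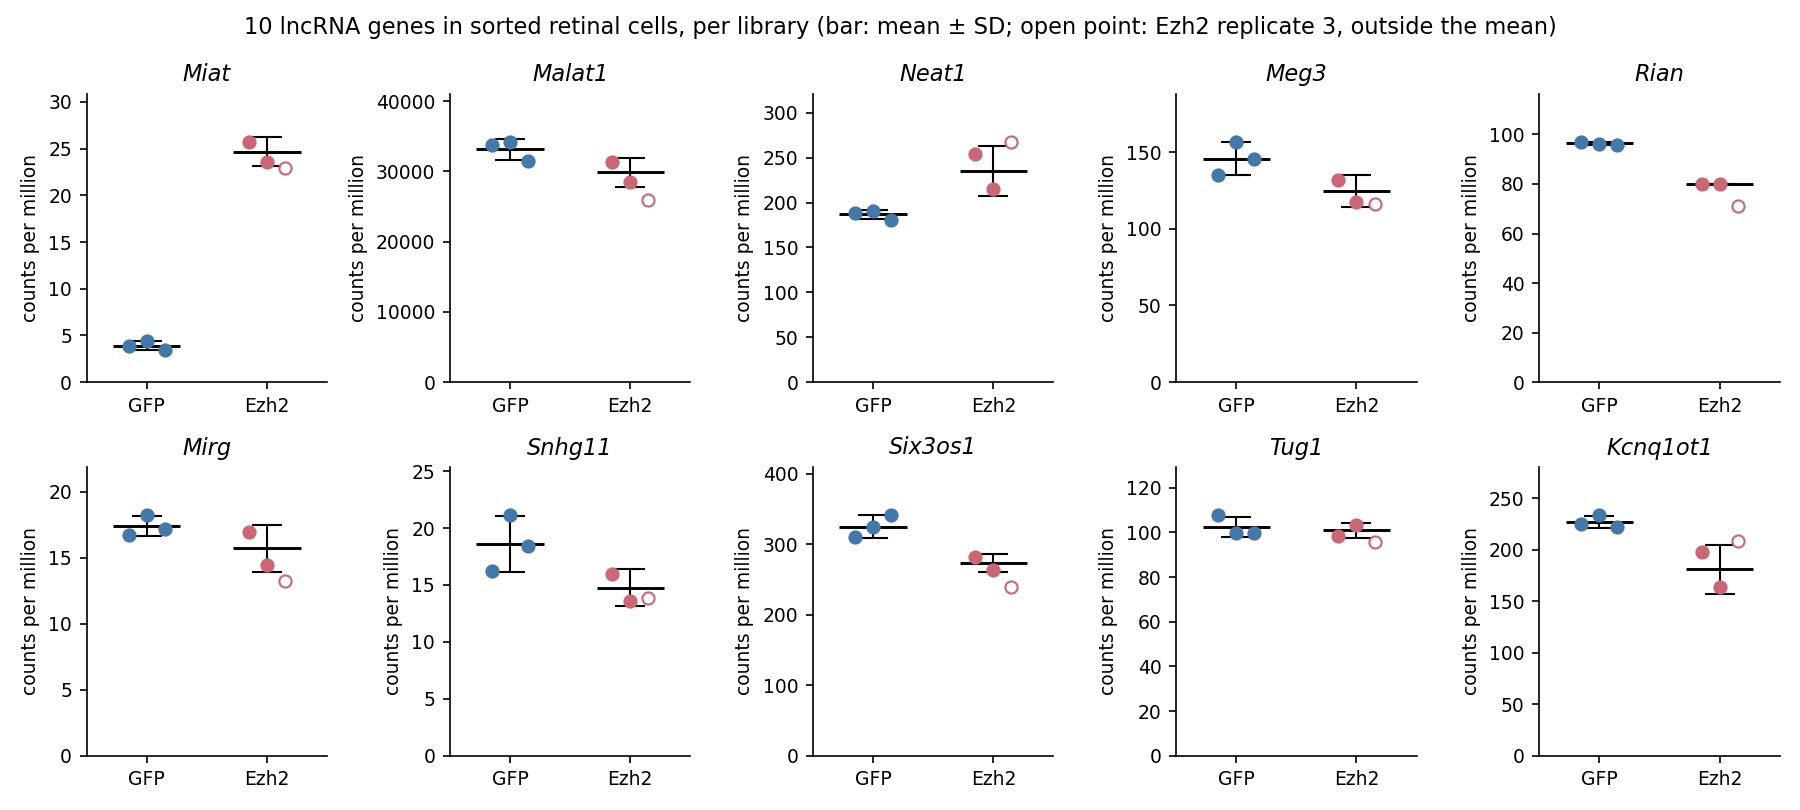
CPM of each of the 10 lncRNA genes in every library, with the GFP group in blue and the Ezh2 group in red. Bars are the mean ± SD over the 3 GFP libraries and over Ezh2 replicates 1 and 2, the open point is Ezh2 replicate 3, and each panel has its own axis from 0. *Miat* rises from 3.42 to 4.42 CPM in GFP to 22.9 to 25.7 CPM in Ezh2, whereas the groups of the other panels lie much closer together.

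*Miat* (ENSMUSG00000097767) spans chr5:112213228-112229395 on the minus strand and is annotated as a lincRNA, a lncRNA gene lying between protein-coding genes. A lincRNA on the opposite strand, Gm26953, shares 2260 exon bases with it and had 0 to 2 counts per library. The nearest list genes on its chromosome are those of 2 lens crystallins. *Crybb1*, a beta crystallin gene that homeostatic microglia also express, had 4.69 to 4.93 CPM in the GFP libraries and 3.29, 2.48 and 1.64 CPM in Ezh2 replicates 1, 2 and 3. It fell by 0.72 ± 0.22 on the log2 scale (edgeR quasi-likelihood test, adjusted p = 0.0196), in the opposite direction to *Miat*. With all 6 libraries its adjusted p was 0.062, and it also lost its call without Ezh2 replicate 2. *Cryba4*, which lies beside them, had 2.18 to 3.93 CPM in GFP and 2.52 to 5.08 CPM in Ezh2, with overlapping groups.

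Among the 20241 genes tested, *Miat* had the 33rd largest fitted rise, and among 3581 tested genes annotated as lncRNAs the 2nd largest. The 5 genes whose log2 CPM was most like that of *Miat* over the 6 libraries were *Mfsd5*, *Rpa1*, *Ier2*, *Ighv1-80* and *Ptpn6*, with Pearson's r from 0.996 to 0.998 among 13769 genes with at least 100 counts on average. These values mostly reflect the step between the groups, which all 5 genes share. Their sizes differed. *Mfsd5*, a membrane transporter gene, went from between 25.1 and 25.7 CPM in GFP to between 29.1 and 29.3 CPM in Ezh2. *Rpa1*, a subunit of the single-stranded DNA binding complex, went from between 82.3 and 83.3 CPM to between 93.8 and 95.2 CPM. The immediate early gene *Ier2* had 32.2 to 37.3 CPM in GFP and 71.5 to 73.6 CPM in Ezh2. *Ptpn6*, a phosphatase gene of blood cells, had 89.5 to 99.4 CPM and 139.8 to 144.7 CPM. *Ighv1-80*, an antibody variable gene that may exchange reads with near-identical copies, had 0 counts in each GFP library, which allows up to 0.0981 CPM there, and 6.31 to 9.13 CPM in Ezh2.

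Per kilobase of exon (RPKM), the members covered a wide range of levels. In the GFP libraries *Malat1* stood at 4746 ± 211 RPKM (SD, n = 3), above nearly every gene tested. *Six3os1* followed at 27.4 ± 1.33, then *Tug1* at 10.5 ± 0.466, *Neat1* at 8.99 ± 0.255, *Meg3* at 8.06 ± 0.598 and *Rian* at 5.29 ± 0.0341. *Kcnq1ot1* at 2.43 ± 0.0657, *Mirg* at 2.38 ± 0.106 and *Snhg11* at 2.18 ± 0.289 RPKM could not be ordered, since each overlapped the next. *Miat* was last at 0.421 ± 0.0542 RPKM, which exceeded 12.2% of the genes tested. In Ezh2 replicates 1 and 2 it reached 2.65 ± 0.167 RPKM, in 7th place above *Mirg*, *Kcnq1ot1* and *Snhg11* with no overlap. *Neat1* at 11.3 ± 1.33 and *Tug1* at 10.4 ± 0.338 RPKM overlapped in the Ezh2 group. These places were the same for *Miat*, *Neat1* and *Tug1* with Ezh2 replicate 3 included.

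**Figure D2:**
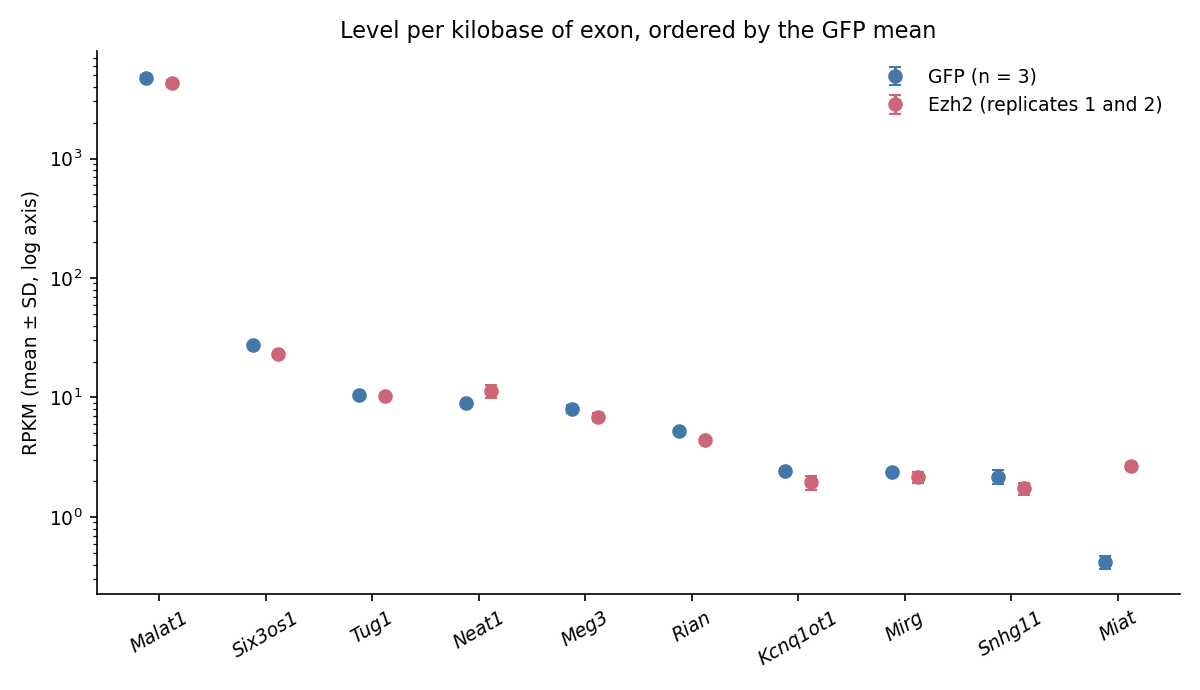
Mean RPKM ± SD of the 10 lncRNA genes on a log axis, ordered by their level in the 3 GFP libraries (blue), beside Ezh2 replicates 1 and 2 (red). *Miat* moves from 0.421 RPKM, the lowest level in GFP, to 2.65 RPKM, above *Kcnq1ot1*, *Mirg* and *Snhg11*.

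*Malat1* and *Neat1* are neighbours on chromosome 19 and build parts of the nucleus: *Malat1* RNA gathers in nuclear speckles, where splicing factors are stored, and *Neat1* RNA holds paraspeckles together. *Malat1* (chr19:5795690-5802672) had 33698, 34252 and 31471 CPM in GFP replicates 1 to 3. In Ezh2 replicates 1 to 3 it had 31362, 28431 and 25919 CPM. It alone took 2.59% to 3.43% of all counts of a library. All Ezh2 libraries were below all GFP libraries, but Ezh2 replicate 1 lay only just below GFP replicate 3, and the log2 fold change was -0.14 ± 0.06 (-0.18 ± 0.08 with 6 libraries). *Neat1* (chr19:5824708-5845478) went the other way, with 188.8, 190.8 and 180.8 CPM in GFP and 254.6, 215.4 and 267.9 CPM in Ezh2 replicates 1 to 3. Its log2 fold change was 0.34 ± 0.06, and 0.44 ± 0.09 with all 6. The groups did not overlap, and the Ezh2 libraries were more scattered (coefficient of variation 11.1%) than the GFP libraries (2.83%). The 2 RNAs, although next to each other in the genome, thus lay on opposite sides of the GFP levels in every Ezh2 library.

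The proteins that bind these RNAs did not pass the test. The 14 partner genes include the paraspeckle proteins *Nono* and *Sfpq* and the *Miat* binding proteins *Sf1*, *Qk* and *Celf3*. Of the 14, 0 were called by edgeR, DESeq2 or limma-voom. An unadjusted p under 0.05 was found for 2 of them, beside 5935 of all 20241 genes tested. Genes count as called here where the adjusted p is under 0.05 and the change exceeds 1.5-fold. *Hnrnpk*, an RNA binding protein gene, had 446.4 to 479 CPM in GFP and 465.6 to 541.5 CPM in Ezh2. *Qk*, a splicing regulator gene of glia, had 430.8 to 453 CPM and 348 to 438 CPM. *Sf1*, singled out after its values were seen because its protein binds the sequence printed for *Miat*, had 144.7 to 146.4 CPM in GFP and 153, 140.4 and 196.9 CPM in Ezh2 replicates 1 to 3, a log2 fold change of 0.02 ± 0.05. The median log2 fold change of the 14 genes was -0.03, beside -0.01 over all genes tested.

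*Meg3*, *Rian* and *Mirg* lie one after the other on chromosome 12, in the imprinted interval between *Dlk1* and *Dio3*, and are transcribed from the maternal chromosome. *Meg3* (chr12:109541001-109571726) is known as a growth suppressor, *Rian* hosts small nucleolar RNAs and *Mirg* hosts microRNAs. The GFP libraries held *Meg3* at 135.2, 156.8 and 145.4 CPM, and the Ezh2 libraries at 132, 117.2 and 116 CPM, in the order of their replicate numbers. *Rian* (chr12:109603940-109661716) had 97.1, 96.1 and 95.9 CPM in GFP and 79.9, 80.1 and 71.0 CPM in Ezh2. *Mirg* (chr12:109729764-109749460) had 16.7, 18.2 and 17.2 CPM in GFP and 17.0, 14.4 and 13.2 CPM in Ezh2. All 3 means were lower in the Ezh2 group, *Meg3* and *Rian* without overlap and *Mirg* with Ezh2 replicate 1 inside the GFP range. The log2 fold changes were -0.22 ± 0.06 for *Meg3*, -0.26 ± 0.06 for *Rian* and -0.14 ± 0.11 for *Mirg*. With all 6 libraries they were -0.22 ± 0.08, -0.29 ± 0.07 and -0.19 ± 0.12. *Rian* had the lowest coefficient of variation of the members over the GFP libraries, 0.644%. Over the 3 Ezh2 libraries it was 6.77%, above that of *Tug1* (3.77%).

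The rest of that interval was scarce. Of 114 annotated genes there besides the 3 members, 41 had no count in any library and 22 were tested. Of the 22, 0 were called by edgeR, DESeq2 or limma-voom. An unadjusted p under 0.05 was found for 1 of them, beside 5935 of all 20241 genes tested. The protein-coding gene *Dlk1* stayed at or below 0.186 CPM and *Rtl1* at or below 0.0311 CPM. *Dio3* had 3.38 to 4.94 CPM in GFP and 2.36 to 2.86 CPM in Ezh2, without overlap. It was not called (log2 fold change -0.59 ± 0.23, edgeR, adjusted p = 0.0791). *Dio3os*, a lncRNA gene beside *Dio3*, had 7.16 to 7.74 CPM in GFP and 5.12 to 6.99 CPM in Ezh2, and the unnamed transcript Gm37899 had 5.99 to 7.99 and 4.42 to 5.96 CPM. The median log2 fold change over the 22 genes was -0.15. The exons of the members also hold smaller annotated genes. The 27 that lie wholly within them on the same strand, each with 0 counts in the 6 libraries, include 8 small nucleolar RNA genes in *Rian*. Of 12 genes inside member exons on the opposite strand, 5 had 0 counts throughout.

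*Six3os1*, *Snhg11*, *Tug1* and *Kcnq1ot1* have different roles. *Six3os1* (chr17:85600651-85618398) is read from the opposite strand to *Six3*, a homeobox gene of eye development, and is strongly expressed in retina. In the same order it had 309.8, 324 and 341 CPM in GFP and 282, 263.9 and 239.6 CPM in Ezh2, a log2 fold change of -0.24 ± 0.05 (-0.27 ± 0.07 with 6 libraries). *Six3* itself had 39.0 to 40.4 CPM in GFP and 36.9 to 42.7 CPM in Ezh2, with overlapping groups (log2 fold change 0.03 ± 0.08). The antisense RNA was thus lower in all Ezh2 libraries, while those of the gene across from it lay on both sides of the GFP levels.

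*Snhg11* (chr2:158375638-158386145), a host gene for small nucleolar RNAs that marks neurons, is the 1 member that the annotation lists as protein-coding. It had 16.2, 21.1 and 18.4 CPM in GFP and 15.9, 13.6 and 13.8 CPM in Ezh2 replicates 1 to 3. The groups did not overlap, but Ezh2 replicate 1 lay only just below GFP replicate 1, and the log2 fold change was -0.32 ± 0.11 (-0.32 ± 0.13 with 6). In both *Snhg11* and *Meg3*, GFP replicate 1 was the lowest of the GFP libraries and GFP replicate 2 the highest. Of 16 other small nucleolar RNA host genes tested, 0 were called by edgeR, DESeq2 or limma-voom. An unadjusted p under 0.05 was found for 4 of them, beside 5935 of all 20241 genes tested. *Gas5*, a growth arrest transcript, had 83.3 to 95.5 CPM in GFP and 84.4 to 128.4 CPM in Ezh2, with the top value in Ezh2 replicate 3, and *Zfas1* had 21.2 to 27.7 and 23.0 to 26.2 CPM. The median of the 16 was 0.07, and 0.22 with all 6 libraries.

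*Tug1* (chr11:3639785-3649673), named for being upregulated by taurine and needed for photoreceptor development, was the flattest member. It had 107.7, 99.9 and 99.8 CPM in GFP and 98.5, 103.2 and 95.8 CPM in Ezh2 replicates 1 to 3. The groups overlapped, and the log2 fold change was -0.01 ± 0.06 (-0.01 ± 0.07 with 6), whose sign turned without GFP replicate 1 or Ezh2 replicate 1. *Tug1* shares 483 exon bases with *Morc2a* on the opposite strand, and *Morc2a* showed overlapping groups over all 6 libraries as well, at 72.0 to 78.0 CPM in GFP and 69.1 to 81.7 CPM in Ezh2.

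*Kcnq1ot1* (chr7:143203458-143296549) is the paternal antisense RNA of the *Kcnq1* imprinted domain, where it keeps genes such as *Cdkn1c* silent on its own chromosome. It had 224.7, 233.5 and 221.8 CPM in GFP and 197.9, 164.1 and 208.3 CPM in Ezh2 replicates 1 to 3. All Ezh2 libraries lay below the GFP libraries, but they were widely spread, and the log2 fold change of -0.32 ± 0.06 was -0.44 without Ezh2 replicate 1 and -0.20 without Ezh2 replicate 2. With all 6 libraries it was -0.21 ± 0.10. *Cdkn1c*, which encodes the cell cycle inhibitor p57, had 15.5, 15.3 and 14.6 CPM in GFP and 26.1, 31.9 and 26.0 CPM in Ezh2. It rose by 0.95 ± 0.10 on the log2 scale (edgeR, adjusted p = 2.75e-08, and 0.00339 with 6 libraries). *Cd81*, also of that domain, had 654.9 to 677 CPM in GFP and 472 to 613 CPM in Ezh2 and was not called (log2 fold change -0.14 ± 0.05). Of the 25 genes that neighbour a member or share its domain, 18 were tested, *Cdkn1c* was called higher and *Crybb1* lower, and the other 16 were not called. The list's median was -0.03.

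Counted together, 1 of 10 members, *Miat*, was called higher and 0 were called lower, where 2.52% of all genes tested were called higher and 1.28% lower. With all 6 libraries the count was again 1 and 0, beside 1.62% and 0.902%. *Miat* and *Neat1* were higher in every Ezh2 library than in any GFP library, where 21.5% of genes were so in 5 libraries and 14.9% in 6. *Malat1*, *Meg3*, *Rian*, *Snhg11*, *Six3os1* and *Kcnq1ot1* were lower without overlap, beside 23.4% of genes in 5 libraries and 19.3% in 6. The members' fitted values had a median of -0.18, and 8 of 10 were below 0. Since this contrast chose the members, nothing is read from these counts.

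**Figure D3:**
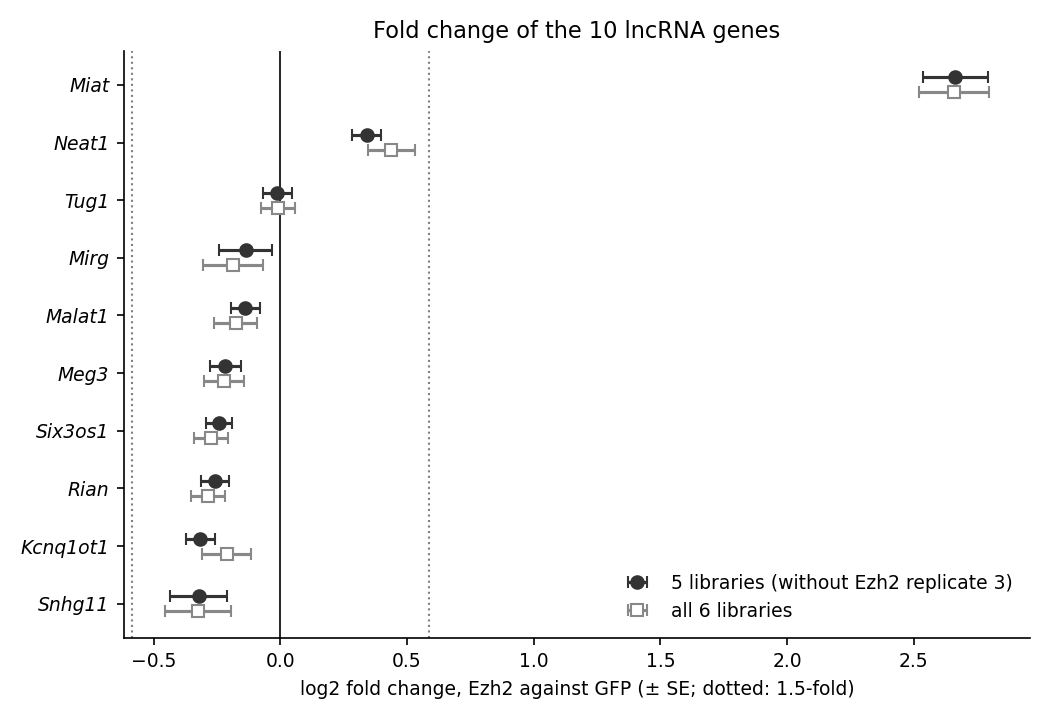
Log2 fold change ± SE of each of the 10 genes, Ezh2 against GFP, with Ezh2 replicate 3 left out (filled circles) and with all 6 libraries (open squares). *Miat* at 2.66 lies beyond the dotted lines that mark a 1.5-fold change, and the other 9 lie between them in both fits.

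By their median, the annotated lncRNA genes as a whole leaned the other way from *Miat*. Of 3572 tested besides the members, 25 were called higher and 69 lower. With the members among them, 0.726% of 3581 were called higher and 1.93% lower, whereas over all genes calls were more often higher. Their median log2 fold change was -0.19, close to the members' median of -0.18 and beside -0.01 for all genes. With all 6 libraries, 5 were called higher and 23 lower. The split of calls was not stable. Members included, 6 were called higher and 2 lower against a 1.5-fold threshold in the test itself. In the 6 libraries without GFP replicate 1, 2 were called higher and 1 lower. Without GFP replicate 2 of the 6 these were 5 and 1, and without GFP replicate 3 they were 2 and 1. Apart from the members, the largest rises among the more abundant ones were 4930430E12Rik (1.99 ± 0.26), Gm36161 (1.99 ± 0.27), Gm5086 (1.38 ± 0.16), F630028O10Rik (1.31 ± 0.24) and BC018473 (1.06 ± 0.08). BC018473 was the most abundant of them, with 22.8 to 24.7 CPM in GFP and 39.2 to 53.0 CPM in Ezh2 (edgeR, adjusted p = 4.50e-11). F630028O10Rik lost its call with all 6 libraries (adjusted p = 0.0538). The largest falls were *Xist* and 4 unnamed transcripts, Gm45003, Gm48015, Gm37205 and Gm45257, whose log2 fold changes lay between -0.95 and -0.89. The biotype of those 4 is a class for transcripts yet to be experimentally examined. Gm37205 lost its call with all 6 libraries (adjusted p = 0.0669).

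**Figure D4:**
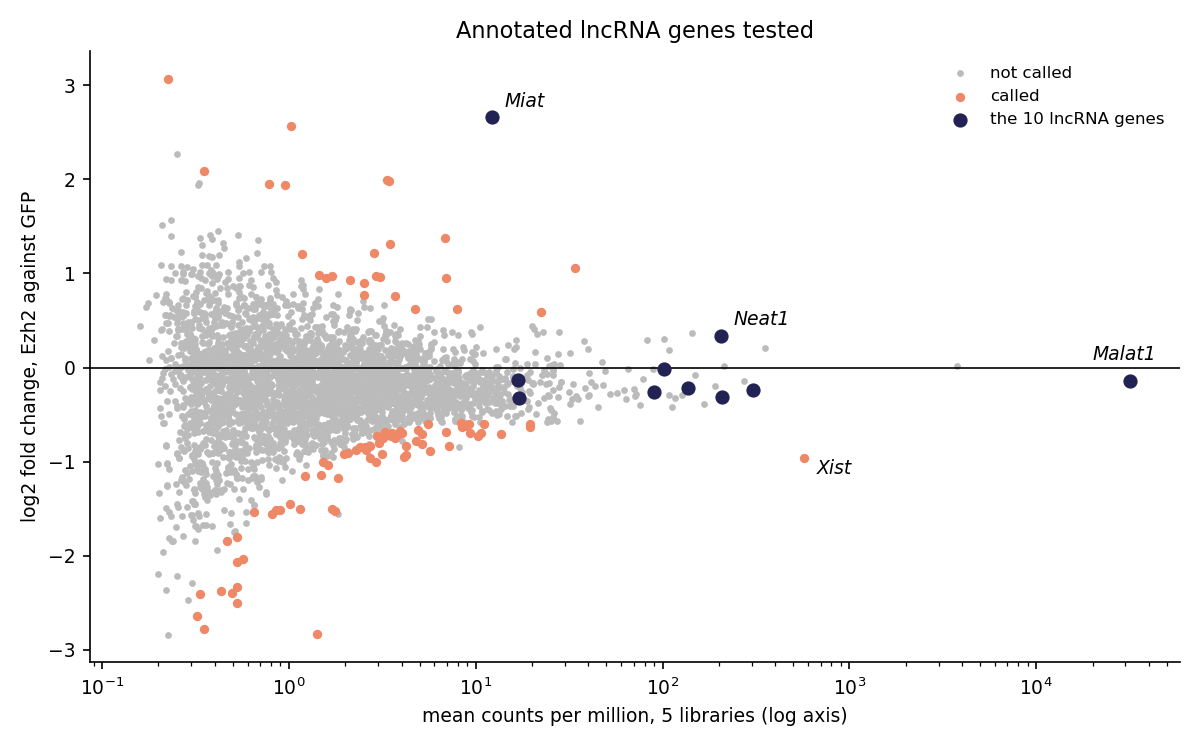
Log2 fold change, Ezh2 against GFP, of each tested annotated lncRNA gene against its mean CPM over 5 libraries (log axis). Called genes are orange, the 10 lncRNA genes dark blue (with *Snhg11*, annotated as protein-coding), and *Miat* at 2.66 stands above the other lncRNAs of its abundance while *Xist* lies at -0.96.

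Of 24 tested genes in a list of other retinal, neural and imprinted lncRNAs, *H19* was called higher, *Xist* lower, and 22 were not called. The list's median was -0.15. *H19*, an imprinted lncRNA of growing tissue, had 3.37, 1.23 and 2.11 CPM in GFP and 3.88, 4.77 and 3.95 CPM in Ezh2 replicates 1 to 3 (log2 fold change 0.96 ± 0.30, adjusted p = 0.0319). That call was lost with all 6 libraries (adjusted p = 0.125) and without GFP replicate 2, GFP replicate 3, Ezh2 replicate 1 or Ezh2 replicate 2, and of the 5 omissions it held in the 1 without GFP replicate 1. *Xist*, which silences 1 X chromosome in female cells, had 635.1, 743 and 763 CPM in GFP and 382, 347 and 365 CPM in Ezh2, a fall by 0.96 ± 0.07 on the log2 scale (edgeR, adjusted p = 4.01e-08, and 0.000729 with 6 libraries).

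Genes of the Y chromosome also differed, in the opposite direction to *Xist*. They were looked at after *Xist* was seen to differ. *Ddx3y*, an RNA helicase gene, had 29.4 to 31.5 CPM in GFP and 42.9, 51.7 and 51.5 CPM in Ezh2 replicates 1 to 3, and it rose by 0.66 ± 0.08 on the log2 scale (edgeR, adjusted p = 8.78e-07). *Eif2s3y*, *Kdm5d* and *Uty* were also higher in each Ezh2 library than in any GFP library, with log2 fold changes of 0.22 ± 0.08, 0.26 ± 0.07 and 0.24 ± 0.08 that did not reach a 1.5-fold change. Mice of both sexes were used, per the study's methods. The groups thus differed in *Xist* and Y-linked RNA as well as in *Miat*, and the part of that in the members' differences was not tested. All 10 members lie on autosomes.

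**Figure D5:**
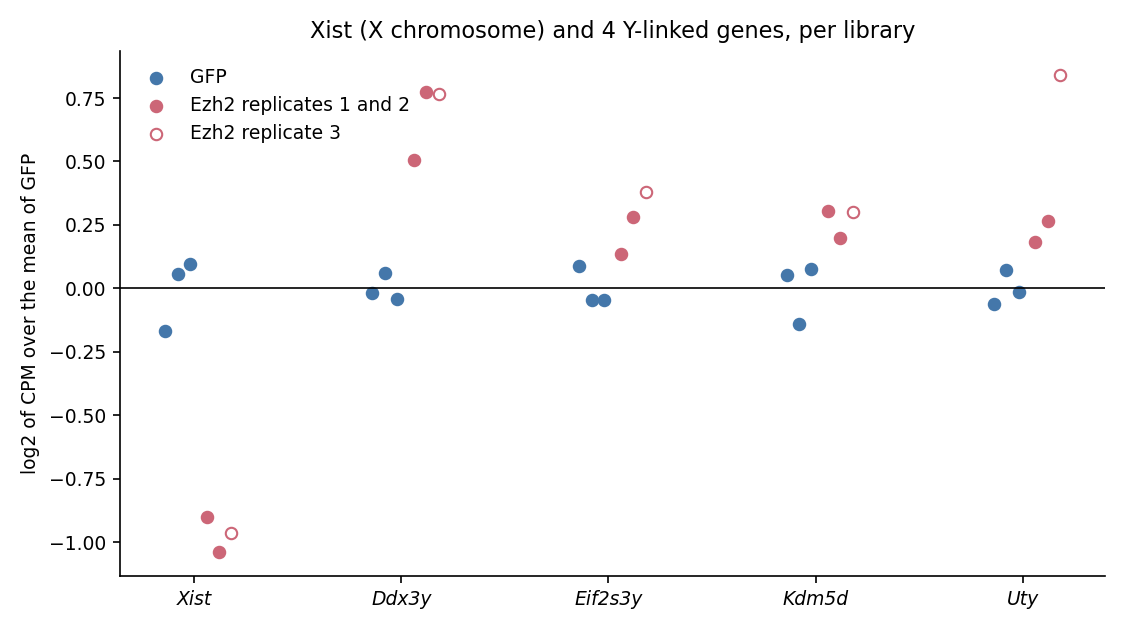
Log2 of CPM over the mean of the GFP group for *Xist* and 4 Y-linked genes, with GFP libraries in blue, Ezh2 replicates 1 and 2 in red and Ezh2 replicate 3 as an open point. *Xist* is lower in each Ezh2 library (347 to 382 CPM) than in any GFP library (635.1 to 763 CPM), and each Y-linked gene is higher.

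Markers of other cells also differed between the groups beside *Miat*. For scale, 2.52% of all genes tested were called higher and 1.28% lower in 5 libraries (1.62% and 0.902% in 6). Without overlap, 21.5% of all genes tested were higher and 23.4% lower in 5 libraries (14.9% and 19.3% in 6). The summed level of 8 macrophage markers was 553.4 to 633 CPM in GFP and 1515 to 2298 CPM in Ezh2, with 4 of 7 tested genes called higher. *Lyz2* alone had 329.2 to 379.5 CPM in GFP and 1223 to 1868 CPM in Ezh2. The summed level of 10 T cell markers was 470.6 to 504 and 601 to 1032 CPM, with 1 of 10 called higher. That of 8 cone markers was 15.1 to 18.2 and 20.7 to 46.7 CPM, with 7 of 8 called higher in 5 libraries and 1 with all 6. That of 12 RGC markers was 141.3 to 145.3 and 163.8 to 177 CPM, with 2 of 10 tested called higher. The sum of 10 amacrine markers was lower, at 515.8 to 533 CPM in GFP and 403.5 to 457 CPM in Ezh2, with 1 of 9 tested called higher and 1 lower. Most of that sum was *Pax6*, with 441.6 to 449.8 and 350.3 to 399.9 CPM. Of the 9 tested, 6 were lower in each Ezh2 library than in any GFP library, *Pax6* among them. The median log2 fold change of the 9 was -0.31. The 1 called lower was *Tfap2b*, with a mean of 10.8 CPM in GFP and 1.61 CPM in Ezh2 replicates 1 and 2. Its log2 fold change was -2.72 ± 0.24. *Gad1* and *Tfap2c* were higher in each Ezh2 library than in any GFP library. The summed level of 8 rod markers was 400.6 to 471 CPM in GFP and 713, 756 and 423 CPM in Ezh2 replicates 1 to 3. That of 8 microglia markers was 1994 to 2200 and 2542, 2754 and 1852 CPM, and that of 8 B and plasma cell markers 2633 to 2765 and 3238, 3073 and 2026 CPM. These 3 sums were thus higher without overlap in Ezh2 replicates 1 and 2, and Ezh2 replicate 3 lay within or below the GFP range. The sums of bipolar and Müller glia markers overlapped between the groups. Of the 8 Müller glia markers, however, 5 were lower without overlap and 2 higher, with a median log2 fold change of -0.21. *Glul* had 9540 to 9900 CPM in GFP and 5446 to 6937 CPM in Ezh2. *Apoe*, the 1 of them called higher, had 5471 to 5637 and 7102 to 9638 CPM. In the 5 libraries 3 of 8 rod, 1 of 8 microglia and 1 of 8 Müller glia markers were called higher. Summed levels of 6 astrocyte markers were higher (659.8 to 690.6 and 937.8 to 1182 CPM), with 1 of 6 called higher. That 1 was *Gfap*, with 412.6 to 426.0 and 719.3 to 919.3 CPM. The fitted values of 4 of the 6 were below 0, with a median of -0.02. Summed levels of 8 endothelial and mural markers were lower (3582 to 3748 and 2668 to 3347 CPM), with 0 of 8 called. Most of that sum was *Kdr* and *Flt1*, the 2 that were lower without overlap. The fitted values of 3 of the 8 were above 0, and the median was -0.06. No marker was at 0 in all libraries. The part of any of these cells in the levels of the lncRNAs was not tested.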

How the data were processed

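RNA-Seq libraries of 6 sorted cell samples were analysed from 1 table of raw read counts per Ensembl gene that the authors deposited. Per the submitters' processing notes, STAR 2.7.0d and the GRCm38 build were used. The counting program and its strand setting are not given in the sources used here, and the library kit keeps strand. Symbols, exons and biotypes came from GENCODE M21, which matched 55480 of 55573 identifiers, and mature microRNAs from RefSeq. No sample column was left unmatched (0 columns).

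The members and the gene lists were chosen with earlier results of these data known. Of 37 listed retinal and neural lncRNAs 32 matched by symbol, and of 19 small nucleolar RNA hosts 16. Of the 6 libraries, the 3 of GFP and the first 2 of Ezh2 entered the fit, because the study left out 1 Ezh2 library and its heatmap columns are those 5. That this was replicate 3 is inferred. Counts were filtered with filterByExpr, scaled by TMM and tested in edgeR 4.0.16 (R 4.3.3) by quasi-likelihood F tests with robust estimation, two-sided, adjusted by Benjamini-Hochberg over all genes tested. SEs came from the F statistic. CPM used library totals, and RPKM the summed exon length. In each list up to 4 called genes with the largest fold changes were named, or the 2 most abundant if none was called, and among other lncRNAs the 5 largest rises and falls that averaged 100 or more normalized counts and did not overlap. *Cryba4*, *Cd81*, *Six3*, *Morc2a*, *Dlk1*, *Rtl1*, *Dio3*, *Sf1* and the Y-linked genes were named beside a member after their values were seen. Single markers within the cell type sums were also picked after their values were seen. A count of 0 allows up to 3 counts, and such limits cover counting error only, as reads carry no molecular identifiers. Tried besides were all 6 libraries, omission of each library, a replicate block, other scalings and filters, DESeq2 1.42.0, limma-voom (limma 3.58.1) and other thresholds. The values of 1 partner gene are not reported here. Replicate numbers were not treated as pairs in the main fit.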

Additional observations from a re-analysis of the deposited data

Results flagged for a closer look

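Ezh2 replicate 3 did not enter the fit of 5 libraries, but it was among the 6 libraries on whose counts the members were chosen, so its levels are a description and no independent support. *Miat* reached 22.9 CPM in it, above every GFP library (3.42 to 4.42 CPM). *Neat1* reached 267.9 CPM in it, above every GFP library (180.8 to 190.8 CPM). These are the 2 members whose level in that library lay above all control samples.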

How the results depend on the processing

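The log2 fold change of *Miat* lay between 2.57 and 2.76 over 21 alternatives. As a description only, since this contrast chose the members, 1 member was called in each alternative except at adjusted p alone, where 7 passed. Those 7 were 2 higher and 5 lower, where 2050 of all 20241 genes tested passed higher and 1555 lower. *Neat1* ranged from 0.23 to 0.53 and *Kcnq1ot1* from -0.44 to -0.11, the extremes of both with a library left out. The sign of *Tug1* turned in 4 alternatives, up to 0.04, all without GFP replicate 1 or Ezh2 replicate 1. No other member changed sign.

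With all 6 libraries, 498 genes were called in place of 770, 29 lncRNA genes in place of 95, 1 retinal and neural lncRNA in place of 2 and 1 neighbour gene in place of 2. With a library left out, called genes ranged from 110 to 794, lncRNA genes from 3 to 117, retinal and neural lncRNAs and neighbour genes from 1 to 2 each, and genes of the *Dlk1* to *Dio3* interval from 0 to 1. The lowest counts came from all 6 libraries without GFP replicate 1 (110 genes). With 59 lncRNA genes, leaving out Ezh2 replicate 2 of the 5 libraries moved that count the most. Against a 1.5-fold threshold in the test itself (glmTreat), 180 genes, 8 lncRNA genes, 1 retinal and neural lncRNA and 1 neighbour gene were called. Of those 8 lncRNA genes, 6 were higher and 2 lower, the reverse of the main fit's lean. At adjusted p alone, 3605 genes, 207 lncRNA genes, 10 retinal and neural lncRNAs, 1 small nucleolar RNA host, 2 protein partners and 4 neighbour genes passed.

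Deviations of libraries with the same replicate number from their group mean correlated at -0.02 to -0.0045. The Ezh2 mean included replicate 3, which stood apart, so this check cannot settle whether the numbers pair samples. With the replicate block, 722 genes were called (396 with all 6 libraries), 81 lncRNA genes (17), 2 retinal and neural lncRNAs (1) and 2 neighbour genes (1), and *Miat* stood at 2.58 (2.66). Without robust estimation, chosen after seeing the data, 754 genes and 79 lncRNA genes were called. In each of the 10 fits with a library left out, the lone or remaining libraries share 1 estimate of the spread. At 105 to 140 counts per GFP library, *Miat* is limited by counting error more than the other members.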
